A study of Saccharomyces cerevisiae with 24 samples.

Results

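Technical replicate 3 (T3) was set against technical replicate 1 (T1) over all genes in wild-type budding yeast. The libraries were chosen by their titles, 8 of T3 and 8 of T1, or 16 of the 24 in the study. Each T3 library was paired with the T1 library of the same pipetting speed and the same culture, which gave 8 pairs. The 8 libraries of technical replicate 2 (T2) stayed out of the test, and their values are given beside those of T1 and T3. The study used a liquid handling robot, the Opentrons OT-2, to ask whether the speed at which a yeast culture is aspirated, mixed and dispensed alters growth and gene expression. Every group held the same strain, W303, for which the study's methods name W303-1B with mutations in ade2, trp1, can1, leu2, his3 and ura3. It was grown in YPD, a rich medium with glucose, and no chemical was added in any group. T1, T2 and T3 each held 1 library at each of 4 speeds (50, 130, 210 and 290 µL/s) from each of 2 biological replicates. A library carries its speed and both numbers in its name, as in 50 µL/s B1T3 for the slowest speed, culture 1 and T3. The biological replicates were separate cultures of 1 clone. The 8 pairs therefore came from 2 cultures, and the p-values measure the spread between libraries of these cultures. What separates technical replicate numbers 1, 2 and 3 beyond the number was not given in the sources used here.

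Yeast on glucose ties the making of ribosomes to growth: TORC1 and protein kinase A keep on the genes for RNA polymerase I, ribosome assembly factors and ribosomal proteins. The same kinases hold back the transcription factors Msn2 and Msn4, which switch on genes for heat shock proteins, antioxidants and the storage sugars trehalose and glycogen. Oxygen is read through heme and sterols, whose synthesis needs it: heme turns on respiratory genes through Hap1 and the Hap complex, Rox1 represses hypoxic genes, and Upc2 and Ecm22 drive the sterol genes.

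The libraries were of like depth. The expected counts, RSEM's estimates of fragments per gene, summed to between 11555761 and 14005430 per library in T1 and between 11707040 and 15464428 in T3. Mean fragment length was 179.9 to 188.1 bases in T1 and 180.5 to 191.3 in T3. The 50 most abundant genes held 29.8 to 31.54% of a T1 library, 29.05 to 31.32% of a T2 library and 26.38 to 28.8% of a T3 library, so every T3 library lay below every T1 library. The methods give the strain as MATa. The alpha-specific genes were the abundant ones in T1, with a median of 4080 TPM (RSEM's level, corrected for gene length) for the pheromone gene MF(ALPHA)1 and 296 TPM for the a-factor receptor gene STE3. The a-specific genes were low, with a median of 6.09 TPM for the alpha-factor receptor gene STE2 and 4.95 TPM for the protease gene BAR1. The markers thus went against the mating type given, in the same way in T1, T2 and T3, and MFA1, MFA2 and AGA2 were not analysed here.

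Of the lists described below, ribosome biogenesis factors were called higher in T3 in 91 of 91 cases. General stress genes were called lower in 26 of 40, trehalose and glycogen genes in 15 of 20 and genes of glycolysis and fermentation in 16 of 21. Of 5142 genes tested, 2390 passed a false discovery rate (FDR) of 0.01 in edgeR's quasi-likelihood test with a term for each pair. That is 46.5% of the genes, with 1279 (24.9%) higher and 1111 (21.6%) lower in T3. Most of the changes were small. The median size was 0.25 on the log2 scale, the upper quartile 0.4 and the range −1.98 to 1.29. At least 2-fold changes numbered 28 (0.545%), of which 7 (0.136%) were higher and 21 (0.408%) lower. Of the genes called, 1080 were higher in all 8 pairs and 950 lower in all 8. CPM values, the counts scaled by TMM to a common library size, did not overlap between the 8 T3 and the 8 T1 libraries for 1306 genes (25.4%), 659 (12.8%) with T3 above and 647 (12.6%) with T3 below. With library totals in place of TMM, 67.6% of 2524 calls were higher, against 53.5% of 2390 here, and the median over all genes shifted from 0.01 to 0.06. Small differences are to be read with that shift in mind.

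**Figure D1:**
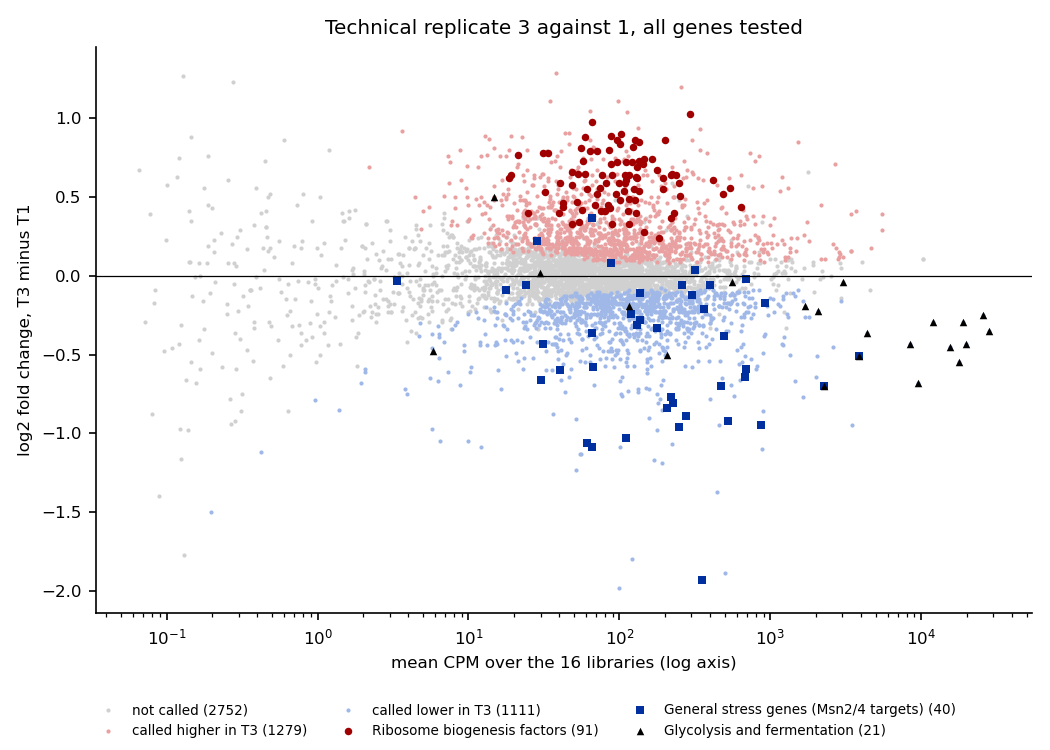
Log2 fold change of T3 over T1 from edgeR (vertical axis) against the mean CPM over the 16 libraries (horizontal log axis), 1 point a gene, for the 5142 genes tested. Pale red and blue points passed an FDR of 0.01, dark red circles are the 91 ribosome biogenesis genes (all above 0), dark blue squares the 40 general stress genes and black triangles the 21 genes of glycolysis and fermentation.

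The 8 pairs differed in how far apart their libraries were. Over the 4704 genes with a mean of at least 10 CPM, the SD of the log2 difference was, from the fastest speed to the slowest, 0.189, 0.226, 0.312 and 0.448 in biological replicate 1. In biological replicate 2 it was 0.304, 0.278, 0.3 and 0.316. The pair at 50 µL/s in biological replicate 1 stood apart, with 172 genes at least 2-fold higher and 47 at least 2-fold lower. No other pair had more than 63 such genes higher or 24 lower, and the pair at 290 µL/s in biological replicate 1 had 0 higher and 7 lower. Without the 50 µL/s pair of biological replicate 1, 2166 genes were called. On the T1 side 290 µL/s B2T1 was often the extreme library of the genes named here, and without its pair 2032 genes were called.

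The factors that process and assemble ribosomal RNA into ribosomes rose as a group. All 91 tested were higher in T3 at an FDR of 0.01, with a median log2 fold change of 0.62 and a range of 0.24 to 1.03, where 24.9% of all genes were higher. For 79 of them every T3 library lay above every T1 library, against 12.8% of all genes. Without the 50 µL/s pair of biological replicate 1 the count stayed at 91. These are bulk libraries, in which fewer cells of a kind and less RNA per cell cannot be told apart. NSR1, the yeast nucleolin, which binds pre-ribosomal RNA, was at 151 to 239 CPM in T1 (median 185) and at 282 to 637 CPM in T3 (median 377). Its highest T3 library was 50 µL/s B1T3, the T3 and T1 libraries did not overlap, and T2 had a median of 212 CPM. The log2 fold change was 1.03 ± 0.129 (SE, n = 8 pairs; edgeR FDR = 6.96e-05). ENP2, a component of the small subunit processome, rose from a median of 40.8 CPM (36.2 to 54.3) to 81.9 CPM (60.3 to 147). SDA1, needed for export of the large subunit, rose from 65.6 CPM (62 to 88.7) to 128 CPM (102 to 213). In both genes the T3 libraries lay above all T1 libraries, and 50 µL/s B1T3 was again the highest. CBF5, the pseudouridine synthase of box H/ACA particles, had the highest mean CPM of the list and one of its smaller changes, 0.44 ± 0.0454 on the log2 scale.

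Among the 12 largest increases were also KAP123, SYO1 and RMT2, which no list held. KAP123, the karyopherin that carries ribosomal proteins into the nucleus, was at 71.1 to 111 CPM in T1 (median 89.5), at a median of 104 CPM in T2 and at 134 to 273 CPM in T3 (median 170). SYO1, a chaperone that imports ribosomal proteins of the 5S particle, rose from a median of 29.3 CPM (23.2 to 38) to 54.7 CPM (40.9 to 94.3). RMT2, a methyltransferase that modifies a large-subunit protein, rose from 30.5 CPM (25.1 to 41.6) to 56.6 CPM (45.8 to 93.3). In none of these did the T1 and T3 ranges meet, and all 8 pairs were higher. Their log2 fold changes were 0.94, 0.91 and 0.91.

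RNA polymerase I makes the large ribosomal RNA, and RNA polymerase III makes 5S RNA and transfer RNA. Of 23 subunit genes of these enzymes, 20 rose and none fell (median 0.47), where 24.9% of all genes rose. RPA190, the largest subunit of RNA polymerase I, was at 241 to 325 CPM in T1 (median 278) and at 366 to 553 CPM in T3 (median 411), with no overlap. RPA135, the other large subunit, rose by 0.73 ± 0.0858 on the log2 scale (edgeR FDR = 4.55e-05), and RPA43, which contacts the initiation factor Rrn3, by 0.82 ± 0.101 (edgeR FDR = 6.09e-05). Both were higher in 8 of 8 pairs.

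Further down the pathway the changes were smaller. Among cytosolic ribosomal protein genes, 47 of 67 rose and none fell, with a median of 0.15, where 24.9% of all genes rose. Many of these ribosomal protein genes have near-identical copies that share reads. Together these genes took 16.3 to 19.4% of TPM in T1 and 19.4 to 22.6% in T3. RPL16A was at 504 to 662 CPM in T1 (median 618) and at 670 to 934 CPM in T3 (median 779). RPL3, the most abundant of the list by CPM, moved from a median of 4410 CPM (3920 to 4490) to 4870 CPM (4570 to 5180). Both genes had T3 libraries above all T1 libraries, although RPL3 changed by only 0.18 ± 0.0279 on the log2 scale. Translation factors rose in 30 of 39 cases and 1, TIF4632, fell (median 0.20). YEF3, the fungal elongation factor that helps release spent transfer RNA, was at 4280 to 5130 CPM in T1 (median 4780) and at 5710 to 7210 CPM in T3 (median 6080), without overlap. NIP1, a core subunit of initiation factor eIF3, rose by 0.48 ± 0.0355 on the log2 scale (edgeR FDR = 3.64e-06). Of 20 cytosolic transfer RNA synthetases 12 rose and 1, GUS1, fell. KRS1, which charges lysine, rose from a median of 890 CPM (860 to 926) to 1120 CPM (1050 to 1170), and its differences in the 8 pairs lay close together, between 0.28 and 0.44. TIF4632 (−0.11) and GUS1 (−0.11) each lost the call without any 1 of 6 pairs and with library totals. Both were named after their values were seen, as were the other exceptions given below for lists that moved mainly the other way. Mitochondrial ribosomal proteins rose in 39 of 66 cases and fell in none (median 0.17), and with library totals in place of TMM 55 rose.

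**Figure D2:**
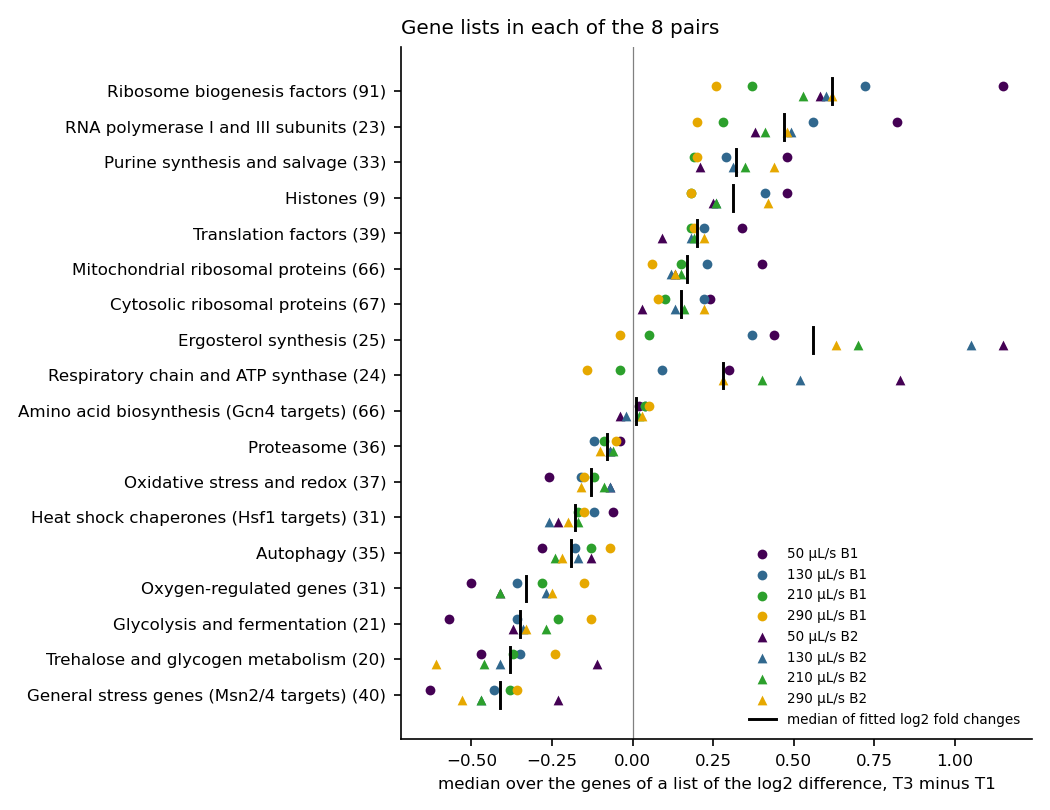
Median over the genes of each list of the log2 difference between the T3 and T1 library of a pair (horizontal axis), for 18 lists with the number of genes in brackets. Circles are biological replicate 1, triangles biological replicate 2, colours the speeds, and black bars the medians of the fitted log2 fold changes. For ribosome biogenesis factors the medians of the 4 pairs of biological replicate 1 ran from 0.26 to 1.15 and those of biological replicate 2 from 0.53 to 0.62.

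Genes that supply nucleotides rose as well. Of 33 purine genes 25 rose and 2, ADE12 and ADE16, fell, with a median of 0.32 (24.9% of all genes rose and 21.6% fell). AAH1, the adenine deaminase of purine salvage, was at 18 to 28.1 CPM in T1 (median 20.3), at a median of 22.4 CPM in T2 and at 33.7 to 83.7 CPM in T3 (median 45.9). The T3 libraries lay above all T1 libraries, with 50 µL/s B1T3 far above the rest, and the log2 fold change was 1.11 ± 0.166 (edgeR FDR = 0.000202). Without the 50 µL/s pair of biological replicate 1 it was 0.95. GUA1, which makes GMP, rose from a median of 212 CPM (170 to 255) to 372 CPM (318 to 562). HPT1, which recycles hypoxanthine and guanine, rose from 89.6 CPM (69.1 to 109) to 163 CPM (120 to 236). No T1 library of either gene reached the lowest T3 library. Among 15 pyrimidine genes 9 rose and 2, URA8 and URA10, fell. URA7, a CTP synthase, rose from a median of 70 CPM (56.1 to 90) to 132 CPM (101 to 215). URA8, the other CTP synthase, fell from 310 CPM (296 to 401) to 221 CPM (178 to 245). By CPM, URA8 was the more abundant transcript in every T1 library. URA10, the minor orotate phosphoribosyltransferase, fell by 0.91 on the log2 scale. Each of these 3 genes had 1 direction in 8 of 8 pairs.

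The 12 largest decreases included HSP26 and HSP30. HSP26, a small heat shock protein that keeps unfolded proteins from aggregating, was at 402 to 663 CPM in T1 (median 573), at a median of 318 CPM in T2 and at 94.4 to 210 CPM in T3 (median 145). Its log2 fold change was −1.93 ± 0.0994 (edgeR FDR = 8.56e-07). Every T3 library was below every T1 library, with 50 µL/s B1T3 lowest. HSP30, a plasma membrane protein that restrains the proton pump, went from 609 to 971 CPM (median 807) to 160 to 259 CPM (median 213), with T2 at 299 to 649 CPM. The log2 fold change was −1.89 ± 0.074 (edgeR FDR = 8.64e-08), and here 50 µL/s B1T3 was not the lowest library. YRO2, a membrane protein of the same family as HSP30, fell by 1.37 on the log2 scale, and SPI1, a cell wall protein, by 1.09. NQM1, a relative of transaldolase, fell by 1.13, and FMS1, a polyamine oxidase, by 1.17. Also among the 12 largest decreases were GPM2, a relative of phosphoglycerate mutase (−1.80), GPG1, which has been tied to the glucose-sensing G protein (−1.23), and YER188W, whose function is not known (−1.19).

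The lists of stress genes, which share some members such as HSP26, showed the same direction. Among 40 targets of Msn2 and Msn4, 26 fell and 2 rose, where 21.6% of all genes fell, and the median was −0.41. In 22 of the 40, T3 lay below T1 in every library, against 12.6% of all genes. The summed TPM of the list was 1.68 to 2.24% of the total in T1, 1.36 to 1.79% in T2 and 1.2 to 1.46% in T3. GND2, a minor isozyme of the pentose phosphate pathway, was at 62.7 to 102 CPM in T1 (median 83.6) and at 28.5 to 53 CPM in T3 (median 37.7), with no overlap. The genes that rose were XBP1, a transcriptional repressor, and RIM4, an RNA-binding protein of meiosis, which lost its call without any 1 of 3 pairs of biological replicate 2 (log2 fold changes 0.18 to 0.22). Of 31 heat shock chaperones 17 fell and 3 rose (median −0.18). SSA4, the stress-inducible Hsp70, was at 246 to 351 CPM in T1 (median 313) and at 127 to 168 CPM in T3 (median 142). HSP12, which protects membranes, was at 269 to 370 CPM (median 335) and 142 to 197 CPM (median 172). Neither gene overlapped between T1 and T3. The chaperones that rose were SSB1, which binds new chains at the ribosome, YDJ1, a cytosolic Hsp40, and MGE1, of the mitochondrial Hsp70 cycle. SSB1 was at a median of 4980 CPM in T1 (4550 to 5200) and 5950 CPM in T3 (5580 to 6880), again without overlap.

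Antioxidant genes fell in 15 of 37 cases and rose in 3 (median −0.13), or 48.6% called against 46.5% of all genes. AHP1, a thiol peroxidase, went from a median of 792 CPM (720 to 939) to 533 CPM (431 to 600), and GRX1, a glutaredoxin, from 192 CPM (188 to 214) to 128 CPM (116 to 145). Both were lower in all 8 pairs. TSA1, the main cytosolic peroxiredoxin, was one of the 3 that rose, by 0.21 ± 0.0395 on the log2 scale (edgeR FDR = 0.000784). Autophagy genes fell in 20 of 35 cases and rose in 2 (median −0.19), with ATG19, the cargo receptor of the Cvt pathway, at −0.53. Of 36 proteasome genes 16 fell and none rose (44.4% called, below the 46.5% of all genes), with a median of −0.08. Only 6 fell with library totals in place of TMM. The largest change of the list was in UBI4, the stress-inducible polyubiquitin gene (−0.39 ± 0.0425, edgeR FDR = 2.97e-05).

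Transcripts for the metabolism of storage sugars, breakdown included, and for glycolysis fell together in these libraries. Of 20 genes of trehalose and glycogen metabolism 15 fell and 1, PGM1, rose, with a median of −0.38, where 21.6% of all genes fell. PGM2, the major phosphoglucomutase, was at 1660 to 2390 CPM in T1 (median 2080) and at 1070 to 1310 CPM in T3 (median 1230). GDB1, the glycogen debranching enzyme, was at 546 to 891 CPM (median 711) and 344 to 460 CPM (median 427). GPH1, glycogen phosphorylase, was at 1930 to 2800 CPM (median 2470) and 1330 to 1680 CPM (median 1590). T1 and T3 did not overlap in any of the 3. Glycolysis and fermentation genes fell in 16 of 21 cases (median −0.35), and 1, ADH2, the alcohol dehydrogenase that consumes ethanol, rose. These genes are among the most abundant in the cell, and they took 16.5 to 18.5% of TPM in T1, 15.2 to 17.3% in T2 and 11.3 to 14.8% in T3. ENO1, an enolase, was at 10700 to 12700 CPM in T1 (median 11700) and at 5560 to 8580 CPM in T3 (median 7330). PGK1, phosphoglycerate kinase, went from a median of 21100 CPM (19500 to 22400) to 14900 CPM (11100 to 16300). In both genes 50 µL/s B1T3 was the lowest library and no T3 library reached T1. GLK1, glucokinase, fell by 0.70 ± 0.0564 on the log2 scale (edgeR FDR = 5.26e-06), and FBA1, aldolase, the most abundant of the list by CPM, by 0.35.

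**Figure D3:**
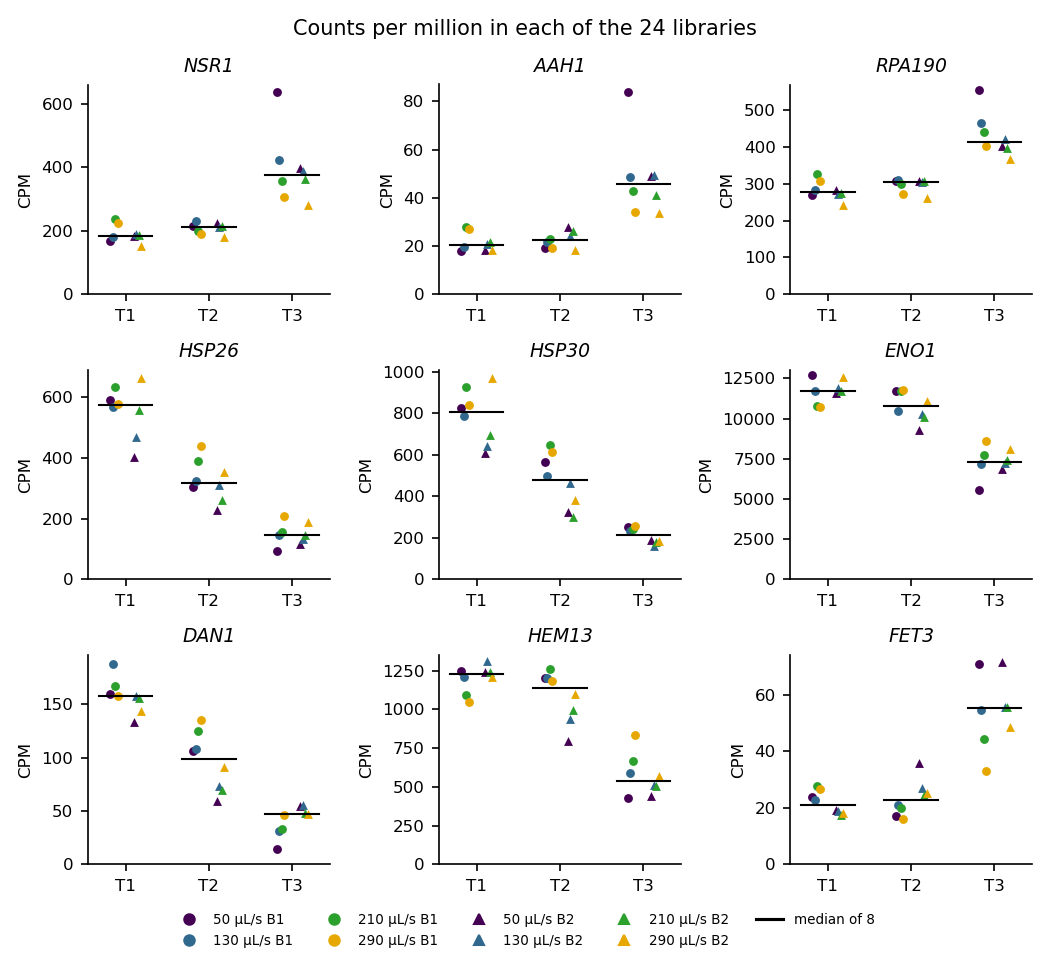
TMM-scaled CPM (vertical axes, from 0) of 9 genes in each of the 24 libraries, grouped by technical replicate. Circles are biological replicate 1, triangles biological replicate 2, colours the speeds, and black lines the medians of 8 libraries. In all 9 genes no T3 library falls within the T1 range, and 50 µL/s B1T3 is the highest library for NSR1 (637 CPM), AAH1 (83.7 CPM) and RPA190 (553 CPM).

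Genes for other carbon sources moved the other way from glycolysis. Of 31 gluconeogenic and alternative carbon genes 16 rose and 2, SUC2 and GAL1, fell (median 0.21). SUC2 (−0.36) lost its call without any 1 pair other than the 50 µL/s pair of biological replicate 2, and GAL1 (−0.27) without the 210 µL/s pair of biological replicate 1 or the 130 µL/s pair of biological replicate 2. ICL1, isocitrate lyase of the glyoxylate cycle, was at 55 to 101 CPM in T1 (median 71.7) and at 104 to 219 CPM in T3 (median 146). In T2 the cultures lay on either side of T1, with biological replicate 1 at 26.7 to 47.6 CPM and biological replicate 2 at 144 to 241 CPM. The lowest T3 library was just above the highest T1 library, and the log2 fold change was 1.04 ± 0.0725 (edgeR FDR = 2.6e-06). ALD6, which makes acetate in the cytosol, rose from a median of 492 CPM (336 to 627) to 783 CPM (638 to 936), and its T2 libraries were at 239 to 371 CPM in biological replicate 1 and 657 to 894 CPM in biological replicate 2. Hexose transporters and glucose sensors had 3 of 16 higher and 1 lower, with a median of 0.01 and 25% called against 46.5% of all genes. HXT4, their most abundant member by CPM, was at 1590 to 2060 CPM in T1 and at 1590 to 2550 CPM in T3 (log2 fold change 0.07 ± 0.09). Citric acid cycle genes had 7 of 24 lower and 2 higher (median −0.06). Their 37.5% called was below the 46.5% of all genes, of which 21.6% were lower. The list included IDH2, a subunit of isocitrate dehydrogenase, at −0.36 ± 0.0442 (edgeR FDR = 6.14e-05).

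Genes regulated by oxygen fell in 17 of 31 cases and rose in 5, with a median of −0.33, where 21.6% of all genes fell. DAN1, a cell wall mannoprotein made when oxygen is short, had the largest decrease of all genes called. It was at 133 to 188 CPM in T1 (median 158), at 59.7 to 135 CPM in T2 and at 14.9 to 55.6 CPM in T3 (median 46.9). The log2 fold change was −1.98 ± 0.198 (edgeR FDR = 1.89e-05). No T3 library came near T1, and within T3 the 4 libraries of biological replicate 2 were all above the 4 of biological replicate 1. TIR4, a mannoprotein of the same kind, went from a median of 75.8 CPM (63.6 to 91.6) to 33.8 CPM (26.3 to 47.2). HEM13, the oxygen-requiring coproporphyrinogen oxidase of heme synthesis, went from 1220 CPM (1050 to 1310) to 540 CPM (431 to 833). Both were lower in 8 of 8 pairs and did not overlap. The genes that rose were OLE1, NCE103, which encodes carbonic anhydrase, the sterol gene ERG26, and the sterol uptake regulators SUT1 and SUT2. SUT1 (0.22) lost its call without any 1 of 4 pairs and SUT2 (0.20) without any 1 of 5. Without the 50 µL/s pair of biological replicate 1, and likewise without the 290 µL/s pair of biological replicate 2, 3 genes rose. OLE1, the fatty acid desaturase, which uses oxygen, was at 1660 to 2370 CPM in T1 (median 2000) and at 2560 to 4630 CPM in T3 (median 3030).

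Fatty acid synthesis had 7 of 18 genes higher and none lower (38.9% called, against 46.5% of all genes). ACC1, acetyl-CoA carboxylase, went from a median of 1850 CPM (1700 to 1920) to 2510 CPM (2290 to 2660), and FAS1, the beta subunit of fatty acid synthase, from 3150 CPM (2890 to 3280) to 4240 CPM (3740 to 4620). Their T3 libraries all lay above T1.

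Ergosterol genes rose in 14 of 25 cases (24.9% of all genes rose), with a median of 0.56. The 2 that fell were HMG2, a reductase isozyme, and ECM22, an activator of the pathway. HMG2 (−0.19) lost its call without any 1 of 6 pairs. ERG2, a sterol isomerase, was at 209 to 271 CPM in T1 (median 223), at 219 to 298 CPM in T2 and at 300 to 616 CPM in T3 (median 439), with no overlap. The log2 fold change was 0.93 ± 0.132 (edgeR FDR = 0.000138). MVD1, of the mevalonate pathway, and ERG25, a sterol oxidase, had log2 fold changes of 0.80 and 0.78. ERG11, the demethylase targeted by azole drugs and the most abundant of the list by CPM, was at 1110 to 1540 CPM in T1 (median 1300) and at 1300 to 3460 CPM in T3 (median 1990). Its ranges overlapped and it missed the threshold at 0.66 ± 0.189 (edgeR FDR = 0.0102), passing it with DESeq2 (0.66) and limma-voom (0.65), and without the 290 µL/s pair (0.79) or the 210 µL/s pair (0.77) of biological replicate 1. Its 4 T3 libraries of biological replicate 2, at 2400 to 3460 CPM, lay above the 4 of biological replicate 1, at 1300 to 1570 CPM.

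At every speed the ergosterol genes had a larger median difference in biological replicate 2. In biological replicate 1 their median difference was −0.04, 0.05, 0.37 and 0.44 at 290, 210, 130 and 50 µL/s. In biological replicate 2 it was 0.63, 0.70, 1.05 and 1.15. Fitted alone, biological replicate 1 had 1 of the 25 genes higher and 2 lower, and biological replicate 2 had 22 higher and 2 lower. Fewer genes of any kind were called in biological replicate 1 alone, 348 of 5142 against 1843 in biological replicate 2 alone. The difference between the cultures was tested gene by gene as the interaction of technical with biological replicate. No gene of 5142 passed an FDR of 0.01 in edgeR (0%), 448 had an unadjusted p below 0.05 (8.71%), and DESeq2 called 58. Of the 25 ergosterol genes, 23 were among those with an unadjusted p below 0.05, all with the larger T3 difference in biological replicate 2. The count was 23 in each of the 8 fits that left out 1 pair.

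The 5 genes with the lowest p in that test were ERG1, CYB5, SCM4, DAP1 and ANB1. ERG1, squalene epoxidase, had pair differences of −0.48, −0.44, −0.05 and −0.04 in biological replicate 1 and 0.56, 0.70, 1.16 and 1.29 in biological replicate 2, from 290 to 50 µL/s. CYB5, cytochrome b5, which passes electrons to sterol and lipid enzymes, had −1.12, −1.14, −0.53 and −0.43, and 0.27, 0.58, 1.26 and 1.49. Both were below 0 in every pair of one culture and above 0 in every pair of the other, and their log2 fold changes over all pairs, 0.34 and 0.06, were not called. SCM4, a mitochondrial outer membrane protein, and DAP1, a heme protein that supports ERG11, had the same pattern. The cultures differed by 1.18 ± 0.168 for ERG1, 1.73 ± 0.268 for CYB5, 1.38 ± 0.202 for SCM4 and 0.66 ± 0.095 for DAP1 on the log2 scale. ANB1, the hypoxic form of the elongation factor eIF5A, differed by 0.60 ± 0.0798. For these 5 genes the edgeR FDR was 0.0433, above the threshold of 0.01. Over all genes the interval of the difference between cultures stayed within 2-fold for 95.8%.

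**Figure D4:**
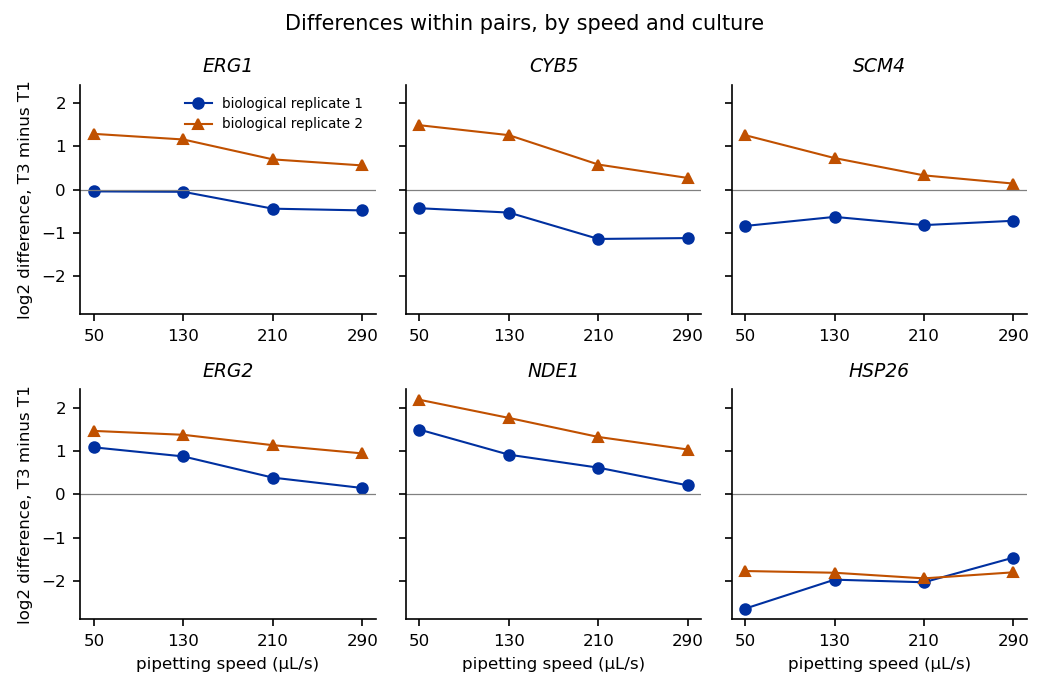
Log2 difference between the T3 and T1 library of each pair (vertical axes) against pipetting speed (horizontal axes, µL/s) for 6 genes. Blue circles are biological replicate 1 and orange triangles biological replicate 2. ERG1, CYB5 and SCM4 lie below 0 in every pair of biological replicate 1 and above 0 in every pair of biological replicate 2, ERG2 and NDE1 are above 0 in 8 of 8 pairs, and HSP26 lies between −1.46 and −2.64.

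Respiratory genes resembled the ergosterol genes in this respect. Of 24 genes of the respiratory chain and ATP synthase 5 rose and 1, NDE2, fell, or 25% called against 46.5% of all genes, while 22 had a positive log2 fold change and the median was 0.28. The 5 were NDE1, CYC1, COX13, COX6 and QCR6. COX6 (0.39) lost its call without any 1 of 6 pairs, QCR6 (0.45) without any 1 of 3, and NDE2 (−0.29) without any 1 of 5. The count was 3 to 14 when 1 pair was left out, 14 without the 290 µL/s pair of biological replicate 1, 10 without its 210 µL/s pair, and 3 without the 290, 210 or 130 µL/s pair of biological replicate 2. It was 13 with library totals in place of TMM. NDE1, which oxidizes cytosolic NADH at the mitochondrial surface, was at 134 to 164 CPM in T1 (median 147), at 101 to 184 CPM in T2 and at 189 to 666 CPM in T3 (median 337). The groups did not overlap, and the log2 fold change was 1.20 ± 0.184 (edgeR FDR = 0.000229). CYC1, the main cytochrome c, was at 50 to 73.8 CPM in T1 (median 59.7) and at 63.7 to 237 CPM in T3 (median 132), higher in 7 of 8 pairs. Fitted alone, biological replicate 1 had 0 of the 24 higher and biological replicate 2 had 18. Of all 5142 genes, 348 and 1843 were called in these fits. In the test between cultures 20 of the 24 had an unadjusted p below 0.05, against 8.71% of all genes, each with the larger difference in biological replicate 2. With an unadjusted p below 0.05, 10 of 24 citric acid cycle genes had the higher value in biological replicate 2. For sulfur amino acid genes the count was 13 of 33. As lists these 2 fell further in biological replicate 1. The medians there were −0.11 and −0.24, against −0.02 and −0.05 in biological replicate 2. Oxygen-regulated genes had 14 of 31 with an unadjusted p below 0.05, of which 10 had the higher value in biological replicate 2 and 4 the lower. Fitted alone, biological replicate 1 had 0 of these 31 higher and 8 lower, and biological replicate 2 had 4 higher and 19 lower.

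The other way round, ribosome biogenesis factors had 0 of 91 with an unadjusted p below 0.05 in the test between cultures, and 11 with the larger difference in biological replicate 2 once the 50 µL/s pair of biological replicate 1 was left out. Their medians were 0.64 in biological replicate 1 and 0.58 in biological replicate 2. Fitted alone, biological replicate 1 had 3 of the 91 called higher and biological replicate 2 had 90. The general stress genes had 22 of 40 lower in biological replicate 1 alone and 24 in biological replicate 2 alone, with medians of −0.46 and −0.40. Over all genes 348 were called in biological replicate 1 alone, 123 higher and 225 lower, and 1843 in biological replicate 2 alone.

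Whether the T3 difference depended on pipetting speed was tested as a linear trend over the 4 speeds. No gene passed an FDR of 0.01 in edgeR (0%), 792 had an unadjusted p below 0.05 (15.4%), and DESeq2 called 8. Over the whole span of speeds the interval of the trend stayed within 2-fold for 92.2% of the genes. The gene with the lowest p was SUL1, a sulfate permease, at −0.44 ± 0.0624 on the log2 scale for each step of 80 µL/s (edgeR FDR = 0.143). Of the 91 ribosome biogenesis factors, 71 had an unadjusted p below 0.05, all with the larger T3 difference at low speed. That count fell to 28 without the 50 µL/s pair or without the 290 µL/s pair of biological replicate 1. Their pair medians ran from 0.26 at 290 µL/s to 1.15 at 50 µL/s in biological replicate 1 and stayed between 0.53 and 0.62 in biological replicate 2.

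Iron uptake held the largest increase, in a list with a median near 0. FET3 and FTR1 encode the oxidase and the permease of high-affinity iron uptake. FET3 was at 17.6 to 27.6 CPM in T1 (median 21), at a median of 22.9 CPM in T2 and at 33.1 to 71.4 CPM in T3 (median 55.1), and its log2 fold change of 1.29 ± 0.155 was the largest increase (edgeR FDR = 5.2e-05). FTR1 was at 35.2 to 48 CPM in T1 (median 40.8) and at 54.2 to 118 CPM in T3 (median 86.4). Neither gene overlapped between T1 and T3. AFT1, the regulator of iron uptake, rose by 0.35 ± 0.0433 on the log2 scale. Of 32 iron genes, 11 rose and 2 fell (40.6% called, below the background), with a median of 0.07, and 7 rose without the 210 or the 50 µL/s pair of biological replicate 2. ZRT1, the high-affinity zinc transporter, rose from a median of 80 CPM (62.4 to 96.2) to 137 CPM (109 to 195). Of 17 copper and zinc genes 7 rose and 1, ADH4, fell (47.1% called, near the 46.5% of all genes). Among 22 inositol and phospholipid genes 10 rose and 3 fell (59.1% called). INO2, an activator of phospholipid genes, rose by 0.77 ± 0.0875 on the log2 scale, and HNM1, the choline transporter, by 0.50 ± 0.0697.

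Amino acid biosynthesis genes moved in both directions, 22 of 66 up and 17 down, with a median of 0.01, and 11 were lower with library totals. The list had 59.1% called, against 46.5% of all genes, of which 24.9% were higher and 21.6% lower. GCN4, their activator, was at 1230 to 1340 CPM in T1 (median 1260) and at 1390 to 1480 CPM in T3 (median 1440), with no overlap. Sulfur amino acid genes fell in 15 of 33 cases and rose in 3 (median −0.14). MET3, ATP sulfurylase, went from a median of 593 CPM (524 to 773) to 309 CPM (204 to 427), and MET14, the kinase of the next step, from 235 CPM (218 to 281) to 153 CPM (121 to 183). Both were lower in 8 of 8 pairs. MET6, methionine synthase, the most abundant of the list by CPM, was at a median of 2070 CPM in T1 and 1940 CPM in T3. Its log2 fold change was −0.02 ± 0.0962, with 3 pairs higher and 5 lower. Of 20 amino acid and peptide permeases 8 rose and none fell (40% called, against 46.5% of all genes). GAP1, the general permease, did not pass the test (0.00 ± 0.035). Nitrogen catabolite repression genes had 8 of 30 higher and 1 lower, which is 30% called against 46.5% of all genes, of which 24.9% were higher. PUT4, the proline permease, had the largest increase of the list, from a median of 76.3 CPM (64 to 124) to 136 CPM (117 to 203), with overlap between the groups. Its T2 libraries were at 27.5 to 44.2 CPM in biological replicate 1 and 129 to 178 CPM in biological replicate 2.

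Histone genes rose in 7 of 9 cases and fell in none, with a median of 0.31, where 24.9% of all genes rose. The near-identical copies of histone genes share reads. HTB1, an H2B gene, went from a median of 441 CPM (385 to 476) to 576 CPM (516 to 656), with no overlap. Of 69 genes of the G1/S transition and DNA replication 34 rose and 4 fell (median 0.12). POL30, the sliding clamp of replication, rose by 0.38 ± 0.0354 on the log2 scale (edgeR FDR = 1.28e-05). The 4 that fell were MBP1 and the ribonucleotide reductase genes RNR2, RNR3 and RNR4, with RNR3, the DNA damage inducible one, at −0.53 ± 0.0515. MBP1 (−0.14) lost its call without any 1 of 5 pairs and with library totals. Mitotic genes of the CLB2 cluster had 7 of 35 higher and 4 lower (31.4% called, below the background), and 13 higher with library totals. Genes of the M/G1 boundary had 9 of 22 higher and 6 lower (68.2% called, against 46.5% of all genes).

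Several lists stayed below the background of 46.5% called. Meiosis and sporulation genes had 2 of 54 higher (0 to 3 with any 1 pair left out) and 6 lower (14.8% called), with 2 lower without the 290 µL/s pair of biological replicate 2 and 3 without the 130 µL/s pair of biological replicate 1. Their summed TPM was 0.0399 to 0.0429% in T1 and 0.0409 to 0.0433% in T3. Peroxisome genes had 2 of 42 higher and 7 lower, and unfolded protein response genes had 6 of 23 higher and 4 lower. Phosphate genes had 5 of 21 higher and 2 lower. Leaving out any 1 pair other than the 290 µL/s pair of biological replicate 1 left 2 or 3 higher. Pheromone response genes had 14 of 39 higher and 3 lower, with 8 or 9 higher without the 130 µL/s pair of either culture or the 210 µL/s pair of biological replicate 2. AGA1, the anchor of the a-agglutinin, rose among them by 0.55 ± 0.0897 on the log2 scale.

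Other lists passed the test in both directions. Cell wall genes had 15 of 40 higher and 12 lower (67.5% called, against 46.5% of all genes). They were led by SPI1 downward and CWP1, a mannoprotein, upward (0.59 ± 0.0476, edgeR FDR = 5.72e-06). Vitamin and cofactor genes had 12 of 31 lower and 4 higher (51.6% called), with BNA3, of the kynurenine pathway, at −0.58 ± 0.0512. Osmostress and glycerol genes had 8 of 23 lower and 5 higher (56.5% called, against 46.5% of all genes). The count higher was 2 without the 130 µL/s pair of biological replicate 2. It was 3 without the 130 µL/s pair of biological replicate 1 or the 290 µL/s pair of biological replicate 2. GPD2, the glycerol phosphate dehydrogenase made when oxygen is short, was at 675 to 834 CPM in T1 (median 774) and at 398 to 647 CPM in T3 (median 486). All 8 pairs were lower, with the pair at 290 µL/s of biological replicate 1 at −0.06. Growth regulators had 7 of 36 higher and 11 lower, or 50% called against 46.5% of all genes. Without the 290 µL/s pair of biological replicate 1, 4 were higher. SCH9, the kinase through which TORC1 acts on ribosome synthesis, rose by 0.47 ± 0.04, and PDE1, a phosphodiesterase that degrades cyclic AMP, fell by 0.55 on the log2 scale.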

How the data were processed

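RNA from 24 libraries of yeast cultures was sequenced as paired-end reads from a directional poly(A) library kit. According to the labels and methods, the authors trimmed reads with fastp 0.23.2, aligned them with STAR 2.7.10a to a W303 genome from the Saccharomyces Genome Database and estimated levels with RSEM. The deposited expected counts are not normalized, and 23.8% of them were not whole. The deposited TPM values are RSEM's length-corrected levels and were used for levels only. RSEM shares reads among near-identical copies, so members of such families are uncertain. Of 5193 genes, 5151 were named through the R64 annotation.

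Counts were rounded and tested with edgeR 4.0.16 (R 4.3.3) by its quasi-likelihood test. Genes needed an average count above 1 over the 24 libraries, which kept 5142. Scaling was by TMM and the model held a term for each pair plus technical replicate, with Benjamini-Hochberg adjustment and a threshold of 0.01. The ± values are standard errors. The differences by biological replicate and by speed were interaction terms of the same model. Library totals are given with the results. The precision of p-values rests on 8 pairs from 2 cultures. On simulated counts the fits were tested before use. DESeq2 1.42.0, limma 3.58.1 (voom), other scalings, filters and thresholds, fits without the pair term and fits leaving out 1 pair at a time were alternatives. Fits of the gene lists within each culture, and the lists' interaction counts without each pair, were chosen after seeing the data. Figures were drawn with matplotlib 3.10.9.

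The members and the 44 gene lists were chosen with earlier results of these data known. A gene could belong to more than 1 list, so the lists are not independent. Genes were named by a rule. It took the 12 largest increases and the 12 largest decreases among genes called with a mean of at least 10 CPM and 1 direction in 8 of 8 pairs. For each list it took up to 3 called members with the largest changes and the member of highest mean CPM, called or not. It also took the 5 genes of lowest p in each interaction test and the mating type genes. The text gives a selection of these. Genes given as the exceptions or the full set of a list's calls, and genes described for their role outside the rule, were chosen after their values were seen. The growth measurements of the study and a second table with the same values were not used here.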

Additional observations from a re-analysis of the deposited data

Results flagged for a closer look

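For the genes named, 246 sets of 8 library values were examined for a highest or lowest library whose gap to the nearest other passed Dixon's 95% critical value. Chance alone gives about 1 such set in 20 where sets are independent, and 27 were found. These sets share the same libraries, and many genes were named for large changes, so the 27 cannot be compared with that rate. In T3, 13 of them came from 50 µL/s B1T3. It was the highest library for NSR1 (637 CPM), ENP2 (147 CPM), SDA1 (213 CPM), KAP123 (273 CPM), SYO1 (94.3 CPM), RMT2 (93.3 CPM) and NIP1 (509 CPM), which serve ribosome assembly and translation. It was also the highest for the nucleotide genes AAH1 (83.7 CPM), GUA1 (562 CPM) and URA7 (215 CPM), for INO2 (25 CPM) and for YDJ1 (687 CPM), and the lowest for GDB1 (344 CPM).

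In T1, 11 came from 290 µL/s B2T1. It was the lowest library for CBF5 (471 CPM), RPL16A (504 CPM), RPL3 (3920 CPM) and SUT2 (23.2 CPM). It was the highest for GLK1 (3270 CPM), GPG1 (86.6 CPM), GPM2 (237 CPM), GRX1 (214 CPM), MET3 (773 CPM), MET14 (281 CPM) and URA8 (401 CPM). The remaining 3 were PUT4 (203 CPM) and SUC2 (224 CPM), highest in 50 µL/s B2T3, and MF(ALPHA)1 (1220 CPM), lowest in 210 µL/s B1T3.

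For 4 genes every pair of biological replicate 2 was above 0 and every pair of biological replicate 1 below 0. The mean pair difference of biological replicate 2 exceeded that of biological replicate 1 by 1.71 for CYB5, 1.37 for SCM4, 1.18 for ERG1 and 0.65 for DAP1 on the log2 scale. In the edgeR interaction test the FDR of each was 0.0433, which missed the threshold of 0.01.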

How the results depend on the processing

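Of 2390 genes called, the count was 348 with biological replicate 1 alone (123 higher, 225 lower), of which 330 were shared, and 1843 with biological replicate 2 alone, of which 1703 were shared. A single culture leaves 4 pairs. Leaving out 1 pair gave 2016 to 2375 calls, and at least 2-fold changes numbered 21 to 33. In every alternative the shared calls kept their direction. Differences by biological replicate, 0 in edgeR, limma-voom and all fits leaving out 1 pair, numbered 58 with DESeq2 and 12 at an FDR of 0.05. Differences by speed, likewise 0, numbered 8 with DESeq2. The cause was not tested.

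Without the replicate block 2511 genes were called, 2326 of them shared, and with separate terms for speed and culture 2582. Both interaction tests gave 0 calls without the block. The correlation of deviations from the group means within a pair ran from −0.346 to 0.549 and was below 0.1 in 6 of 8 pairs. It was 0.549 in the 290 µL/s pair and 0.176 in the 210 µL/s pair of biological replicate 2. The deviations still held differences between speeds and cultures. Likeness within pairs beyond these labels therefore cannot be read from them.

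For the 120 genes named, 1560 values were recomputed under part of the alternatives, of which 73 lost and 9 gained the call. The much lower number of calls with biological replicate 1 alone is given above. No gene called changed direction. The uncalled CYB5 (−0.15 to 0.31), SCM4 (−0.25 to 0.11), MET6 (−0.10 to 0.04), HXT4 (−0.02 to 0.12) and GAP1 (−0.02 to 0.05) had both signs among their log2 fold changes. Mean fragment length as a covariate gave 2204 calls, 2196 of them shared. Depth was at least 11555761 expected counts per library, and genes averaging 1 count or less were not tested.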
